A study of Mus musculus with 8 samples.

Results

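The subunits of respiratory complex I were read out in immortalised mouse skin fibroblasts kept at low or high oxygen. The members were all features of the deposited table whose names start with Ndufa, Ndufb, Ndufc, Ndufs or Ndufv, without the assembly factors named Ndufaf and without Ndufa4 and Ndufa4l2. This gave 36 genes of 17091 features. Libraries fell into 4 groups of 2: KO cells in hypoxia, KO cells in normoxia, WT cells in hypoxia and WT cells in normoxia. Hypoxia was 1% oxygen and normoxia 21% oxygen, each for 24 hours. WT cells came from C57BL/6 mice. KO is the submitters' library name for cells from mir210lox/lox mice, in which the microRNA gene Mir210 is flanked by the sites that Cre recombinase cuts, and the labels name no Cre. Neither the number of lines behind each genotype nor separate cultures for replicates are given. The p values thus set differences between groups against the spread of libraries within groups, which may be only technical.

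Complex I (NADH:ubiquinone oxidoreductase) is the entry point of electrons from NADH into the mitochondrial respiratory chain. Its peripheral arm in the matrix takes electrons from NADH, passes them along iron-sulfur clusters to ubiquinone, and its membrane arm pumps protons. The pump subunits themselves are encoded in mitochondrial DNA and are not among the members. Of the 36 nuclear genes, 16 encode subunits of the peripheral arm, 19 encode subunits of the membrane arm, and Ndufab1 encodes the acyl carrier protein found in both. Core subunits, those shared with bacterial complex I, account for 7 members (Ndufv1, Ndufs1 and Ndufs8 among them), and the other 29 are accessory subunits. In hypoxic cells the transcription factor HIF is known to turn expression away from respiration and to switch on Mir210, whose product miR-210 is known to repress genes of mitochondrial electron transport and iron-sulfur cluster assembly.

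The mature microRNA and its match among the members are shown because the genotype label concerns the gene of that microRNA. The sequence of miR-210 is RefSeq's (GRCm38.p6, chr7:141221407-141221428, minus strand), with the seed, bases 2 to 8, in capitals. The matching stretch of Ndufa13 is from GENCODE M21 (GRCm38, chr8:69894192-69894221, minus strand, 3′ UTR), with the complement of the seed in capitals.
mmu-miR-210-3p: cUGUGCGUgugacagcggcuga
Ndufa13 site: gggcctgagccaACGCACAtaataaagagt
Among the 36 members, 1 (2.78%) held ACGCACA anywhere in its representative transcript, against 7.99% of 15766 annotated genes. Longer transcripts offer more places for such a match. The members' transcripts had a median of 868 bases, and the shares were not matched for length, so they cannot show fewer sites among members. A match of these letters is a description and does not show that the microRNA acts there. Ndufa13, also called Grim19, encodes a membrane arm subunit needed for assembly of the complex. It had 617 and 655 normalised reads in KO hypoxia, 1029 and 599 in KO normoxia, 880 and 980 in WT hypoxia and 602 and 772 in WT normoxia. KO lay below WT in hypoxia without overlap, as it did for 23 of the 36 members and 24.5% of all tested genes. All 36 members were negative in that comparison, with a median of -0.41, so this is not particular to Ndufa13. In normoxia KO held both the highest and the lowest library. The log2 fold changes of KO over WT were -0.55 ± 0.28 in hypoxia (SE, adjusted p = 0.642) and 0.20 ± 0.28 in normoxia (adjusted p = 1.0, both by limma), so neither passed. Without the 2 libraries that stand apart (KO normoxia replicate 1 and WT hypoxia replicate 2, described below) they were -0.47 in hypoxia and -0.19 in normoxia. Each of the 2 was the higher library of its group for Ndufa13, so the direction of both shifts was set by leaving it out.

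Fold changes are on the log2(value + 1) scale, which understates changes of low genes, with standard errors and two-sided adjusted p values from limma fitted to all 12107 tested features. All 36 members passed the filter on low values. Per the labels' protocols, total RNA was made into libraries with a small RNA set for the SOLiD sequencer. Level per doubling of transcript length moved by -0.16 for KO normoxia replicate 1 and by -0.14 for WT hypoxia replicate 2, against -0.09 to 0.15 in the other 6 libraries. These 2 libraries also held the highest value of 22.1% and 20.8% of all tested genes, and the members' medians and counts are also given without them below. Slopes of the opposite sign were steepest in KO normoxia replicate 2, at 0.15, and KO hypoxia replicate 2, at 0.13. Where the 2 libraries are left out, KO normoxia replicate 2 alone stands for KO normoxia. The features summed to between 7.93 M and 8.68 M per library, from an estimated 6.27 to 12.02 M assigned reads. In KO normoxia the estimates were far apart, at 6.35 M for replicate 1 and 12.02 M for replicate 2. In WT hypoxia they were 7.73 M and 8.22 M. The part of depth in the members' values was not tested. All 11 fibroblast markers were present, with summed values of 67638 to 93275, against at most 65 for markers of leukocytes, endothelium or keratinocytes, and 409 to 980 for 3 skeletal muscle markers, nearly all of it Acta1 (401 to 977), with Myh3 at the lowest value of the table throughout. Mir210 was listed at 1, the lowest value of the table, in all 8 libraries, so the table does not check the genotype. Of the listed genes known to be induced by HIF, 7 of 7 rose in both genotypes (Slc16a3, Egln3, Car9, Bnip3, Pdk1, Ankrd37 and Ak4). Their median log2 fold changes were 3.19 in KO and 3.66 in WT. In KO these 7 are all the genes called. The list was chosen with earlier results of these data known, so it is not an independent check of the oxygen label.

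Members differed in level far more than any of them differed between groups. Per kilobase of transcript, the highest mean over 8 libraries was that of Ndufb9, at 2674 normalised reads per kb. Ndufa2 followed at 1825 and Ndufv2 at 1456. Ndufb9 is a membrane arm subunit of the LYR family, which binds the acyl carrier protein, Ndufa2 is a peripheral subunit with a thioredoxin-like fold, and Ndufv2 carries an iron-sulfur cluster beside the NADH site. Lowest were Ndufab1 at 9.36, Ndufb4 at 28.3 and Ndufs3 at 83.9 normalised reads per kb. The ranges over libraries of Ndufb9 and Ndufa2 overlapped, as did those of Ndufa2 and Ndufv2, while Ndufab1 and Ndufb4 were apart from each other and from the rest. Copies of Ndufb4 and Ndufab1 (Ndufb4c and Ndufab1-ps) are annotated in the genome, and how the authors' counting shared reads between near-identical copies is not given in the sources used here. Both genes are near the low end of counting, with 16 to 48 normalised reads for Ndufb4 and 11 to 16 for Ndufab1. Exons of 15 members overlap another gene, 12 of them on the opposite strand alone (Ndufs1, Ndufs3 and Ndufb5 among them), and no strand setting is given in the sources used here, so reads of such pairs cannot be told apart.

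**Figure D1:**
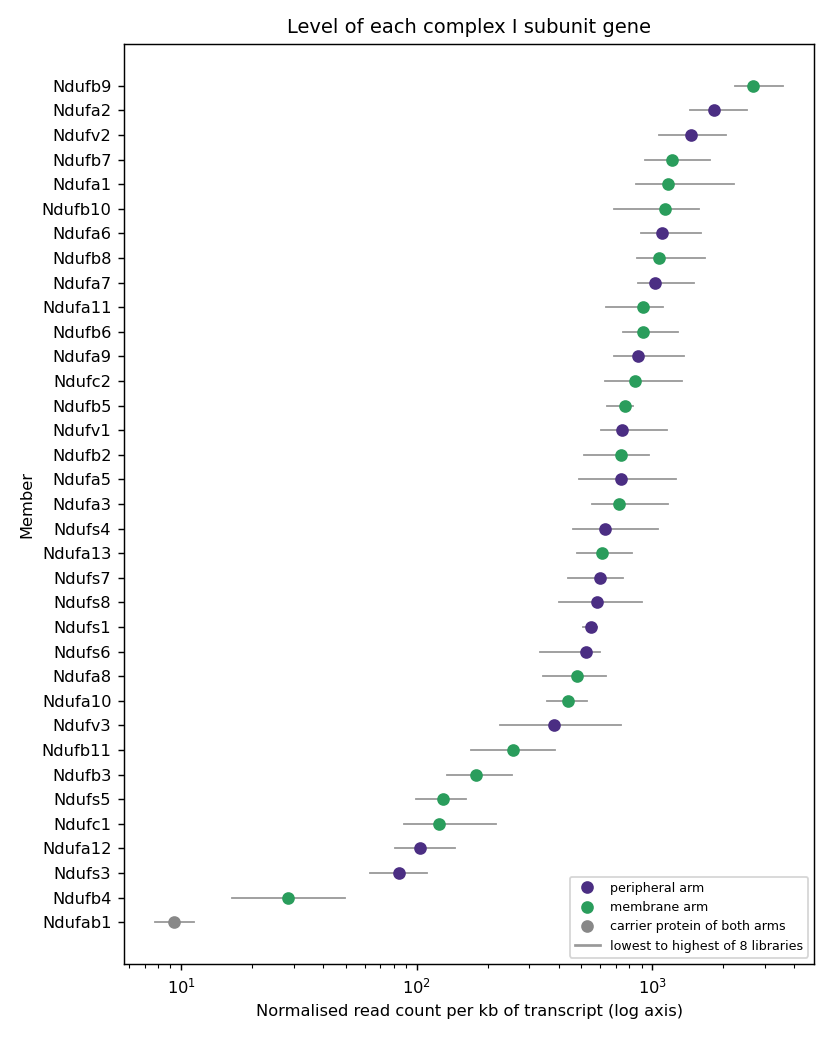
Mean level of 35 of the 36 members over 8 libraries in normalised reads per kb of transcript (log axis), with lines from the lowest to the highest library and colours for the arm of the complex. Levels run from 9.36 for Ndufab1 to 2674 for Ndufb9.

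The steadiest member was Ndufs1, the largest core subunit, which carries several of the iron-sulfur clusters. It had 1313 and 1318 normalised reads in KO hypoxia, 1371 and 1374 in KO normoxia, 1511 and 1480 in WT hypoxia and 1499 and 1480 in WT normoxia. Its highest library was 1.15 times its lowest, and it was the only member with all 4 KO libraries below all 4 WT libraries, which 1.7% of all tested genes showed. The KO over WT log2 fold change over both oxygen levels was -0.15 ± 0.14 (adjusted p = 0.952 by limma, 95% confidence interval -0.46 to 0.16), which did not pass. Ndufb5, a subunit of the membrane arm, was the next steadiest, with a ratio of 1.30 between its highest and lowest libraries. The widest were Ndufv3, a small subunit next to the NADH site, at 3.27, and Ndufb4 at 3.0.

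Most members were high or low in the same libraries, and 2 libraries stood above the rest. Each member's log2 value was set against its own mean over 8 libraries. The median deviation of the 36 members was -0.07 and -0.24 in KO hypoxia, 0.31 and -0.20 in KO normoxia, 0.15 and 0.38 in WT hypoxia, and -0.03 and -0.22 in WT normoxia. KO normoxia replicate 1 and WT hypoxia replicate 2 were the high libraries. In each of them 32 of 36 members were above their own mean, and they were the highest library for 15 and 17 members. These are libraries of different genotype and different oxygen, and their counterparts in the same groups were at -0.20 and 0.15. Leaving them out lowers the members' median in KO normoxia and in WT hypoxia, so the direction of such shifts was set by that choice. Members took 0.379% of the total in KO normoxia replicate 1 and 0.373% in WT hypoxia replicate 2, against 0.255% to 0.308% in the other 6.

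**Figure D2:**
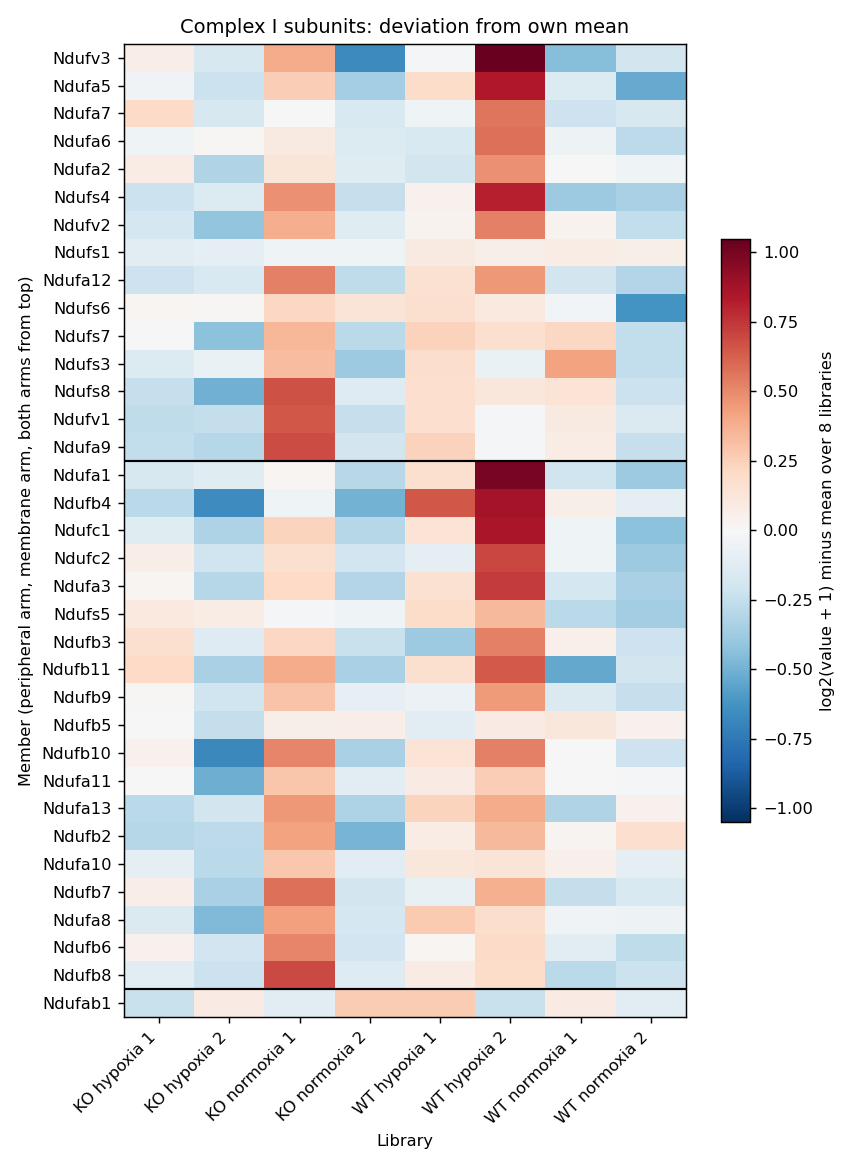
Deviation of 35 of the 36 members (rows, grouped by arm) from their own means over 8 libraries (columns), in log2 units, red above and blue below. KO normoxia replicate 1 and WT hypoxia replicate 2 are red for most members, and Ndufs1 and Ndufb5 are pale throughout.

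The deviations in the 2 libraries had a Pearson correlation of -0.19 across the 36 members, given as a description. WT hypoxia replicate 2 was higher than KO normoxia replicate 1 for 19 members and lower for 17. Ndufa1, a small membrane arm subunit encoded on the X chromosome and needed for assembly, was 0.98 higher in WT hypoxia replicate 2 on the log2 scale, followed by Ndufb4 at 0.91, Ndufv3 at 0.65 and Ndufc1 at 0.63. Lower there were Ndufa9 at -0.70, Ndufv1 at -0.67, Ndufs8 at -0.55 and Ndufb8 at -0.49. Ndufv1 binds NADH and the flavin that takes its electrons, Ndufs8 carries iron-sulfur clusters near ubiquinone, and Ndufa9 sits where the arms meet. Of the 7 core members, 5 were lower in WT hypoxia replicate 2 than in KO normoxia replicate 1. Core members had a median deviation of 0.12 in WT hypoxia replicate 2, against 0.46 for the other 29, while in KO normoxia replicate 1 the medians were 0.38 for core and 0.28 for the others. Among members alone, deviations and transcript length had r of 0.17 for KO normoxia replicate 1 and -0.23 for WT hypoxia replicate 2. The members' transcripts were 419 to 2590 bases long. With GC content r was 0.33 and -0.19. Such correlations within members do not cover how members move against all genes, whose trends with length are given above. The part of length, GC content or RNA quality in these deviations was not tested.

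**Figure D3:**
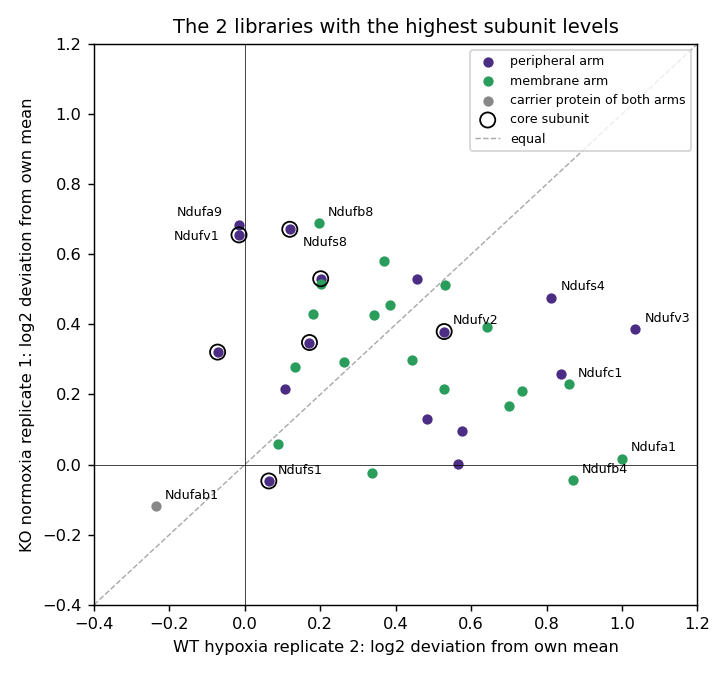
Deviation of each member from its own mean in WT hypoxia replicate 2 (x axis, log2) against KO normoxia replicate 1 (y axis, log2), with circles around core subunits and a dashed line where both are equal. Ndufa9, Ndufv1 and Ndufs8 lie high on the y axis near 0 on the x axis, and Ndufa1 and Ndufb4 lie near 0 on the y axis at the right.

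Likeness to the other members over 8 libraries was highest for Ndufv2 and Ndufa12, each with a Pearson correlation of 0.95 with the mean of the other 35. Ndufa12 encodes a late-joining peripheral subunit. Lowest were Ndufab1 at -0.43, Ndufs1 at 0.30 and Ndufb5 at 0.33. Outside the members, the genes most like the members' mean were Rpl32 (r = 0.992), Hist1h1a (0.990), 2010107E04Rik (0.986), Rps27l (0.981) and Atp5k (0.980), and 244 of 12071 other genes were above 0.9. All share the same libraries, and these values describe how libraries differ. Rpl32, a ribosomal protein gene, had 1613 and 1388 normalised reads in KO hypoxia, 2552 and 1432 in KO normoxia, 2046 and 2969 in WT hypoxia and 1550 and 1343 in WT normoxia, so its high libraries were also KO normoxia replicate 1 and WT hypoxia replicate 2.

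The promoters of 3 members that stood at the ends of the comparisons are shown from RefSeq (GRCm38.p6, all on the minus strand, 250 bases before to 50 after the start, given 5′ to 3′ on the gene's strand). Ndufa1 is at chrX:37191189-37191488, Ndufs4 at chr13:114388045-114388344 and Ndufs8 at chr19:3912725-3913024. Capitals mark the core of the HIF site (ACGTG or GCGTG) and AAGATGGC, a form of the YY1 site, on either strand.
Ndufa1 promoter: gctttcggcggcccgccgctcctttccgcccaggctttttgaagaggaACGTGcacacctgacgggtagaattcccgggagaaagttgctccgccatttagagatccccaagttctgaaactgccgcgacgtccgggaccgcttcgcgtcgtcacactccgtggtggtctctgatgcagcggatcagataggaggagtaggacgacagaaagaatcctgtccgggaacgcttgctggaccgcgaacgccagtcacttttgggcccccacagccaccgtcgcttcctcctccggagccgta
Ndufs4 promoter: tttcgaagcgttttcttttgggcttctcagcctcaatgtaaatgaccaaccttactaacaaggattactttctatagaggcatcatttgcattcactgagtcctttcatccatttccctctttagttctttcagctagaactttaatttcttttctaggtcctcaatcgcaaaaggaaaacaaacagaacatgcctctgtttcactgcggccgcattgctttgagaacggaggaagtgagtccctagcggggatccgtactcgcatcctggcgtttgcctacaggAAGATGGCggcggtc
Ndufs8 promoter: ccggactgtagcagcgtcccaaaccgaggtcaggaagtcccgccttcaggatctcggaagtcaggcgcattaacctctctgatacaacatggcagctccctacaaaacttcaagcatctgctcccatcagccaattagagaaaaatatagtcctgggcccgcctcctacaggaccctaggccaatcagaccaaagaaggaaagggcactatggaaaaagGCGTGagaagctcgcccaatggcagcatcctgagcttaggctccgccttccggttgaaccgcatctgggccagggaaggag
Ndufa1 held ACGTG beginning 202 bases before the start, Ndufs8 held GCGTG 31 bases before it, and Ndufs4 held no HIF core but 1 YY1 match. Windows were found for 32 of 36 members, 34 in all. ACGTG or GCGTG was in 52.9% of the members' windows, against 43.8% of all 32851 windows of the same length. The site of the nuclear respiratory factor NRF1 (GCGCA and GCGC on either side of any 1 base) was in 23.5% against 4.6%. The YY1 form AAGATGGC was in 20.6% against 2.75%, and CCGGAAG, a site of ETS factors, in 11.8% against 8.86%. The members' shares rest on 8 windows for NRF1, 7 for YY1 and 4 for ETS. Windows of all genes were not matched to the members for GC content or level, so the shares are only a description. Motifs were searched on both strands, neighbouring matches can share bases at their ends, and a match is not a bound site. NRF1, YY1 and ETS factors are known regulators of nuclear genes for the respiratory chain.

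Hypoxia was compared with normoxia within each genotype, to see how the subunits stand after 24 hours of low oxygen. In bulk RNA, fewer cells with a transcript and less of it per cell cannot be told apart. In KO fibroblasts no member passed the test and most values were negative. Of 36 members 31 were negative and 5 positive, with a median of -0.20, against 48.7% negative and a median of 0.01 over all genes. By limma 0 of 36 members were called at an adjusted p of 0.05, against 0.0578% of all genes (7 of 12107), and 1 member had an unadjusted p under 0.05, against 3.2% of all genes. Both KO hypoxia libraries were below both KO normoxia libraries for 8 members (16.3% of all genes), among them Ndufv1, Ndufs1, Ndufs8, Ndufs6 and Ndufa9. Ndufs5 alone was above without overlap (15.9% of all genes).

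All 7 core members were negative in the KO hypoxia comparison, with a median of -0.43 and a range from -0.64 to -0.06. Ndufs8 had 471 and 394 normalised reads in KO hypoxia, against 889 and 507 in KO normoxia, a log2 fold change of -0.64 ± 0.29 (adjusted p = 0.916). Ndufv1 had 1009 and 1020 normalised reads in KO hypoxia, against 1911 and 1026 in KO normoxia. The groups did not overlap, yet KO normoxia replicate 2 was level with hypoxia and replicate 1 held nearly all of the difference of -0.46 ± 0.29 (adjusted p = 0.916). Ndufa9 had 1019 and 994 normalised reads in KO hypoxia, against 1961 and 1069 in KO normoxia, at -0.52 ± 0.29 (adjusted p = 0.916). Highest were Ndufs5, a membrane arm subunit on the side of the intermembrane space, at 0.12 ± 0.27, and Ndufv3 and Ndufa7, 2 peripheral subunits, both at 0.09. In 33 of 36 members KO normoxia replicate 1 was above replicate 2, with a median gap of 0.57 on the log2 scale. Over all tested genes the median gap of this pair was 0.01, and the median absolute gap was 0.47, against 0.57 for members.

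The KO response turned on which KO normoxia library was used. Without KO normoxia replicate 1 the members' median was 0.05, with 22 positive and 14 negative and 0 called, and 5 of the 7 core members were negative, from -0.23 to 0.27. Ndufs8 was then at -0.23, Ndufa9 at -0.09, Ndufv1 at -0.02 and Ndufb8, a membrane arm subunit, at -0.04. Without KO normoxia replicate 2 it was -0.46, 760 genes were called in all, of which 199 were lower in hypoxia (1.64% of all genes), and 5 members fell by limma, with adjusted p values from 0.0387 to 0.0453. Among them were Ndufs8 at -1.04 ± 0.23, Ndufa9 at -0.96 ± 0.21, Ndufv1 at -0.91 ± 0.20 and Ndufb8 at -0.86 ± 0.18. In that fit the lone normoxic KO library, one of the 2 high libraries, is assumed to vary like the libraries of the other groups.

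**Figure D4:**
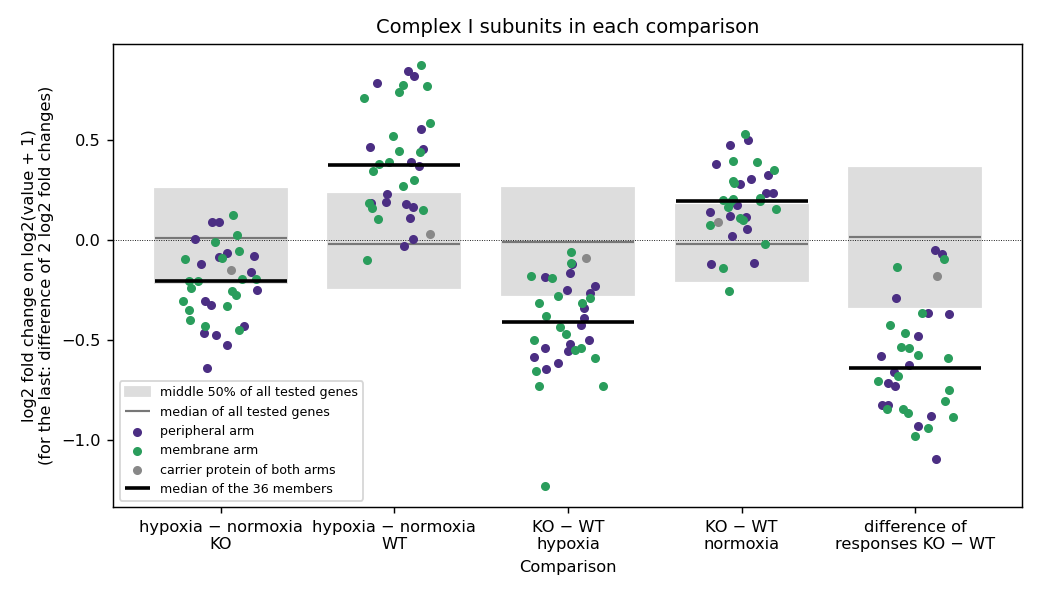
Log2 fold changes of the 36 members (points, coloured by arm) in 4 comparisons and the difference of the hypoxia responses, with the members' median (thick line) over the middle 50% and median of all tested genes (grey). The members' medians are -0.20 and 0.38 for hypoxia in KO and WT, -0.41 and 0.19 for KO over WT in hypoxia and normoxia, and -0.64 for the difference.

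In WT fibroblasts no member passed either, and 34 of 36 had a positive log2 fold change, with a median of 0.38. Over all tested genes 47.8% were positive, with a median of -0.02. By limma 0 of 36 members were called, against 0.107% of all genes (13 of 12107, all higher in hypoxia). At an unadjusted p of 0.05 there were 6 members and 6.33% of all genes. Both hypoxia libraries were above both normoxia libraries for 23 of 36 members, as they were for 18.9% of all genes, and no member was below without overlap (19.9% of all genes).

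Members of the membrane arm and the peripheral arm gave medians of 0.39 and 0.30 in WT hypoxia. The core members had a median of 0.18. Ndufa1 had 523 and 933 normalised reads in WT hypoxia, against 403 and 358 in WT normoxia. Both hypoxia values were above, and the gap between them was wider than the step from normoxia to the lower one. Its log2 fold change was 0.88 ± 0.28 (adjusted p = 0.767). Ndufa5, a peripheral subunit next to the ubiquinone module, had 707 and 1108 normalised reads in WT hypoxia, against 562 and 429 in WT normoxia, a log2 fold change of 0.85 ± 0.30 (adjusted p = 0.767). Ndufv3 had 561 and 1168 normalised reads in WT hypoxia, against 418 and 499 in WT normoxia, at 0.82 ± 0.39 (adjusted p = 0.796). In all 3 genes WT hypoxia replicate 2 was far above replicate 1, and without it and KO normoxia replicate 1 the log2 fold changes were 0.46, 0.53 and 0.30. Ndufs4, a peripheral subunit whose loss in mice causes a Leigh-like brain disease, had 1053 and 1798 normalised reads in WT hypoxia, against 785 and 809 in WT normoxia, at 0.79 ± 0.31 (adjusted p = 0.773) and 0.40 without the 2 libraries. Smallest were Ndufb5 at -0.10 ± 0.21, Ndufs3, a core subunit on which the ubiquinone module is built, at -0.03 ± 0.33, and Ndufs1 at 0.01 ± 0.20, with adjusted p values of 0.960, 0.994 and 0.998. The median over members was 0.23 without the 2 high libraries, with 32 positive and 4 negative. With each library's trend with transcript length removed it was 0.00, with 21 positive and 15 negative.

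**Figure D5:**
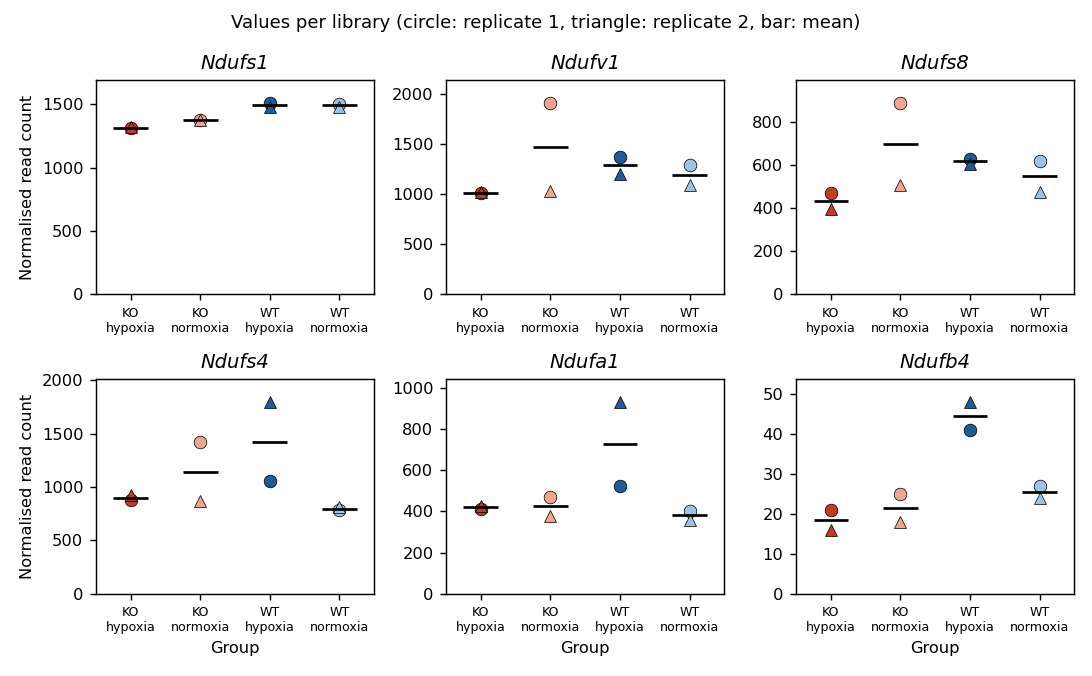
Normalised reads of 6 members in each library by group (circles for replicate 1, triangles for replicate 2, bars for the mean of 2). Ndufs1 is level within each group, Ndufv1 and Ndufs8 are highest in KO normoxia replicate 1, Ndufs4 and Ndufa1 are highest in WT hypoxia replicate 2, and Ndufb4 is high in both WT hypoxia libraries (41 and 48).

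KO was then compared with WT within hypoxia, the condition in which Mir210 is known to be switched on. All 36 members were negative, with a median of -0.41, against 50.9% negative and a median of -0.01 over all genes. By limma 0 of 36 members and 0 of 12107 genes (0%) were called, and 3 members had an unadjusted p under 0.05, against 7.52% of all genes (910). Both KO libraries were below both WT libraries for 23 members, as for 24.5% of all genes, and no member was above without overlap (26.2% of all genes). The peripheral arm had a median of -0.41, the membrane arm -0.43 and the core members -0.42.

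Ndufb4, a subunit of the outer part of the membrane arm, differed most. It had 21 and 16 normalised reads in KO hypoxia, against 41 and 48 in WT hypoxia, with a wide gap between the groups at a low level. Its log2 fold change was -1.23 ± 0.38 (95% confidence interval -2.07 to -0.39, adjusted p = 0.641 by limma), and -1.12 without the 2 high libraries. Ndufa1 had 414 and 428 normalised reads in KO hypoxia, against 523 and 933 in WT hypoxia, at -0.73 ± 0.28 (adjusted p = 0.641), and -0.31 without the 2 libraries. Ndufc1, a small membrane arm subunit, had 136 and 119 normalised reads in KO hypoxia, against 165 and 271 in WT hypoxia, at -0.73 ± 0.31 (adjusted p = 0.642), and -0.37 without them. The smallest differences were those of Ndufb3, another membrane arm subunit, at -0.06 ± 0.33, Ndufab1 at -0.09 ± 0.47 and Ndufb5 at -0.11 ± 0.21, with adjusted p values of 0.970, 0.967 and 0.881. Over all members the median was -0.31 without the 2 libraries, with 31 negative and 5 positive, and -0.18 with the length trend removed, with 23 negative and 13 positive.

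In normoxia, KO over WT was mostly positive, with 31 of 36 members and a median of 0.19, against 47.6% and -0.02 over all genes. By limma 0 of 36 members and 0 of 12107 genes (0%) were called, and 0 members had an unadjusted p under 0.05, against 3% of all genes (363). KO was above WT without overlap for 6 members (10% of all genes) and below for Ndufs1 alone (11%). Ndufb8 had 1142 and 646 normalised reads in KO normoxia, against 583 and 606 in WT normoxia, at 0.53 ± 0.27. Ndufs6, a zinc-binding peripheral subunit, had 342 and 323 normalised reads in KO normoxia, against 289 and 190 in WT normoxia, at 0.50 ± 0.25. Ndufs4 had 1424 and 867 normalised reads in KO normoxia, against 785 and 809 in WT normoxia, at 0.48 ± 0.31. In Ndufb8 and Ndufs4 the first KO library was far above the second, while in Ndufs6 the low library was WT normoxia replicate 2. Lowest were Ndufb4 at -0.25 ± 0.38, Ndufb2, a membrane arm subunit, at -0.14 ± 0.29, and Ndufs1 at -0.12 ± 0.20, and the adjusted p was 1.0 for each of these 6. Without KO normoxia replicate 1 the count turned over to 12 positive and 24 negative, with a median of -0.05. Ndufb8 and Ndufs4 were then at 0.12 each and Ndufs6 at 0.46, and Ndufb4 was at -0.48, Ndufb2 at -0.59 and Ndufs1 at -0.12.

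Whether the response to low oxygen itself differs between KO and WT cells was tested as the KO response minus the WT response. This difference was negative for 36 of 36 members, with a median of -0.64, against 48.9% and 0.01 over all genes. By limma 0 members and 0 genes (0%) were called, and 2 members had an unadjusted p under 0.05, against 3.14% of all genes (380). The difference is made of the same 8 libraries as the comparisons above, and the high KO normoxia library and the high WT hypoxia library both enter it with the same sign, downward. Ndufs4 was lowest, at -1.09 ± 0.43, followed by Ndufb4 at -0.98 ± 0.53 and Ndufc1 at -0.94 ± 0.44, each with an adjusted p of 0.857. Ndufs4 had 876 and 924 normalised reads in KO hypoxia, 1424 and 867 in KO normoxia, 1053 and 1798 in WT hypoxia and 785 and 809 in WT normoxia. Nearest to 0 were Ndufs3 at -0.05 ± 0.47, Ndufs1 at -0.07 ± 0.28 and Ndufb5 at -0.09 ± 0.30. For Ndufs1 the 95% confidence interval ran from -0.69 to 0.56, so a moderate difference in response could not be told from none. Without the 2 high libraries the members' median was -0.25, with 27 negative and 9 positive, and with the length trend removed it was -0.26, with 26 negative and 10 positive. Without the 2 libraries Ndufs4 was at -0.35, Ndufc1 at -0.32 and Ndufb4, then the lowest, at -0.64.

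Over both genotypes the members' values for hypoxia had a median of 0.03, 21 positive and 15 negative, against 50.4% positive over all genes. By limma 0 members were called, against 0.363% of all genes (44), and 0 had an unadjusted p under 0.05, against 5.29%. Without the 2 high libraries the median was 0.13, with 28 positive and 8 negative, without KO normoxia replicate 1 alone 0.19, with 32 positive and 4 negative, and with the length trend removed -0.08, with 13 positive and 23 negative. All 7 core members were slightly negative, from -0.23 to -0.01, and 3 of 7 were without the 2 libraries. Ndufs5 was the only member with all 4 hypoxia libraries above all 4 normoxia libraries, as 2.06% of all genes were. It had 72 and 71 normalised reads in KO hypoxia, 66 and 65 in KO normoxia, 77 and 85 in WT hypoxia and 55 and 52 in WT normoxia. The replicates were close in every group, and the log2 fold change was 0.36 ± 0.19 (adjusted p = 0.922). KO over WT over both oxygen levels had a median of -0.10, with 28 members negative, 7 positive and Ndufab1 at 0, against 52.2% negative over all genes. By limma 0 members were called, against 0.0248% of all genes (3), and 1 had an unadjusted p under 0.05, against 6.07%. This was Ndufb4, the lowest at -0.74 ± 0.27 (adjusted p = 0.699). Without the 2 libraries the median was -0.17, with 29 negative and 7 positive, and with the length trend removed -0.03, with 21 negative and 15 positive.

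The factors that assemble complex I gave medians nearer to 0 in WT hypoxia than the subunits. Of 20 listed, 17 were in the table and tested, and 0 rose or fell in any of the 7 comparisons. For hypoxia the median log2 fold changes of the subunits were -0.20 in KO and 0.38 in WT, against -0.15 in KO and 0.01 in WT for the factors. For KO over WT the factors gave medians of -0.21 in hypoxia and -0.11 in normoxia. For the difference of the hypoxia responses their median was -0.29, with 12 negative and 5 positive, against -0.64 for the subunits. Over both genotypes the highest were Nubpl, which delivers iron-sulfur clusters to complex I, at 0.35, and Ndufaf3 at 0.17, and the lowest were Acad9 at -0.29 and Tmem186 at -0.26, both parts of the complex that assembles the membrane arm. Subunits of complexes II to V gave medians of the same sign as those of complex I. Of 42 tested 0 passed in any comparison, and their medians were -0.24 for hypoxia in KO and 0.30 in WT, -0.38 for KO over WT in hypoxia and 0.15 in normoxia, and -0.60 for the difference. The difference between either list and the members was not tested.

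Ndufa4 and Ndufa4l2, kept out of the members by rule, are related in sequence. Ndufa4 was first assigned to complex I and is now counted as a subunit of complex IV, and Ndufa4l2 is a HIF target reported to lower complex I activity. Ndufa4l2 had 35 and 23 normalised reads in KO hypoxia, 3 and 1 in KO normoxia, 23 and 102 in WT hypoxia and 4 and 1 in WT normoxia. All 4 hypoxia libraries were above all 4 normoxia libraries. Ndufa4l2 was higher in hypoxia over both genotypes by 3.68 ± 0.55 on the log2(value + 1) scale (adjusted p = 0.0217 by limma). In each genotype alone it did not pass (in KO 3.38 ± 0.78, with an adjusted p of 0.396, and in WT 3.97 ± 0.78, with 0.21). Its normoxia values of 1 to 4 lay at or near the lowest value of the table. Only its hypoxia libraries reached the filter on low values, so it was tested because of the group then called higher. The size of this difference and its p value are thus uncertain. Ndufa4 had 1283 and 1079 normalised reads in KO hypoxia, 1702 and 1082 in KO normoxia, 1332 and 2183 in WT hypoxia and 1196 and 951 in WT normoxia. Its high libraries were the same 2 as for the members, and it was not called in any comparison.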

How the data were processed

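Sequencing measured RNA of immortalised mouse fibroblasts from skin in 8 libraries (4 groups of 2). The deposited values are a score: per the table's name they are read counts that the authors normalised, here found to be whole numbers with a lowest value of 1. The sources used here do not give aligner, genome build, counting rule or normalization. Values were taken as log2(value + 1), and features with at least 10 in at least 2 libraries were tested (12107 of 17091). A model of 4 group means over the 8 libraries was fitted by limma 3.58.1 in R 4.3.3, with a trend of variance on level and no replicate block. Contrasts gave 7 comparisons, and p values of each were adjusted (Benjamini-Hochberg) across the tested features, with a threshold of 0.05. Since values are normalised and not whole reads, no count model was run. With 2 libraries against 2 the smallest exact p is 0.333, so limma's calls use the spread shared by the 4 groups. Estimated reads come from the spacing of low values, and intervals are limma's.

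On data simulated for the WT hypoxia comparison (12155 genes), 50 genes were given each size of change. The test found 1 at 1.5-fold, 9 at 2-fold, 29 at 4-fold and 45 at 8-fold, and called 3 genes with no change. Noise was drawn separately for each gene and library, so shifts shared by many genes of a library were not simulated. Counting noise was added to each gene's observed spread within groups. These counts need not hold for the real comparison.

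The members, lists and tests were chosen with earlier results of these data known. Motifs, the 3 promoters and the rule for the representative transcript (lower median length in the best-supported class, GENCODE M21) were chosen after values were seen. Genes named are members that passed, the 3 highest and 3 lowest in the 4 simple comparisons and the difference, and most core subunits (not Ndufs7). Also named are the 3 highest and 3 lowest levels per kb, the 2 highest and 2 lowest assembly factors, and the 5 other genes most alike. Members singled out for groups that do not overlap, for the steadiest or widest values, or for likeness to the other members were named after their values were seen. Arms were assigned from textbook knowledge. No source used here gives RNA quality or the origin of replicates. Values of 1 member are not reported here by name, though it is counted among the 36.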

Additional observations from a re-analysis of the deposited data

How the results depend on the processing

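Across 11 alternatives and 8 fits that each left out 1 library, 0 members were called in all but the KO hypoxia comparison, where 0 to 5 were called over the left-out libraries (5 without KO normoxia replicate 2, given above). The replicate block changed no call of a member and left every median as it was. The labels do not say that same-numbered libraries share a culture or batch, and 2 per group are too few to decide it. The correlation of the replicate gaps across genes was 0.23 between the KO groups, 0.57 between the WT groups, 0.02 in hypoxia and 0.11 in normoxia.

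Counts of called genes depended on the setting. For hypoxia in KO the count of 7 was 11 with a replicate block, 22 with the length trend removed and a replicate block, and 4 to 760 over left-out libraries. In WT the count of 13 was 6 with no filter, 6 with both high libraries left out and 24 with the length trend removed and a replicate block, and 1 to 20 over left-out libraries. Over both genotypes 44 became 24 with no filter, 25 with both high libraries left out, 22 with limma without trend and robust, 72 with the length trend removed and a replicate block, and 12 to 50 over left-out libraries. For KO over WT the counts of 0 became 3 in hypoxia and 2 in normoxia with the length trend removed and a replicate block. Over both oxygen levels the 3 genes became 6 with the length trend removed, 16 with it and a replicate block, 0 with no filter, with a filter of 50, with both high libraries left out or with limma robust, and 0 to 0 over left-out libraries.

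The members' medians moved with the high libraries and the length trend, with or without a replicate block. For hypoxia the median in KO was 0.0547 with both high libraries left out (-0.4573 to 0.0547 over left-out libraries), and that in WT 0.0045 with the length trend removed (0.2321 to 0.5481 over left-out libraries). For KO over WT it was -0.1819 in hypoxia with the trend removed (left-out range -0.5432 to -0.2547) and -0.0514 in normoxia with both left out (left-out range -0.0514 to 0.4735). For the difference it was -0.2552 with the trend removed and -0.2495 with both left out (left-out range -1.0175 to -0.3669). Over both genotypes the left-out range was -0.0606 to 0.1947, and for KO over both oxygen levels -0.2536 to -0.0012. The cause of these shifts was not tested.

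Some members near 0 changed sign, none of them called. With the length trend removed, with or without a replicate block, Ndufs1 was -0.0320 for hypoxia in WT, Ndufb3 0.2471, Ndufab1 0.0643 and Ndufb5 0.1077 for KO over WT in hypoxia, and Ndufs3 0.2596 and Ndufb5 0.2048 for the difference. With both high libraries left out, Ndufs3 was 0.0993 for hypoxia in WT, Ndufb3 0.3948 for KO over WT in hypoxia, and Ndufs3 0.1741 and Ndufb5 0.0061 for the difference. Quantile normalization gave Ndufs1 -0.0114 for hypoxia in WT. Left-out libraries gave ranges of -0.2021 to 0.0063 for Ndufb5, -0.3682 to 0.3124 for Ndufs3 and -0.0092 to 0.0207 for Ndufs1 (hypoxia in WT), -0.4357 to 0.6235 for Ndufv3 and -0.0932 to 0.2771 for Ndufa7 (hypoxia in KO), -0.5933 to 0.3213 for Ndufb2 (KO over WT in normoxia), -0.5121 to 0.3948 for Ndufb3, -0.3415 to 0.1610 for Ndufab1 and -0.2376 to 0.0108 for Ndufb5 (KO over WT in hypoxia), and -0.4009 to 0.3012 for Ndufs3 and -0.2182 to 0.0302 for Ndufb5 (the difference). With 2 libraries a group, standard errors of members were 0.20 to 0.47 in the 4 simple comparisons, 0.28 to 0.66 for the difference and 0.14 to 0.33 over both genotypes or oxygen levels.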
